A study of Mus musculus with 6 samples.

Results

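The genes described here carry glutamate and related amino acids across membranes or make and break glutamate down. They were 9 genes, Slc1a1, Slc1a2, Slc1a3, Slc1a4, Slc1a5, Gls2, Glul, Glud1 and Srr, and their probe sets were those to which the platform annotation gives 1 of these symbols and no other. The rule found 9 probe sets of 8 genes among the 16769 probe sets with 1 gene symbol, 2 of them for Glul and 1 for each of the others. Gls2, the liver form of glutaminase, had none and was not analysed here. All 9 probe sets passed the filter on low values (3 or more arrays at a log2 value of 6 or above) and were tested with the other probe sets that did, 16034 in all.

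RNA came from adrenal glands of female C57Bl/6J mice aged 21 weeks, which carried no transgene or deletion that the labels name. Mothers of the CGP group were given CGP 39551, which blocks the N-methyl-D-aspartate receptor (NMDAR), by mouth at 5 mg/kg body weight during pregnancy and up to weaning, while the other group is labelled control, with no vehicle named. Each group pooled 18 offspring and was measured on 3 Affymetrix whole-transcript arrays, and the labels do not say whether these held separate pools. All p-values therefore measure the spread between arrays, which may be technical, and hold no estimate of the spread between mice.

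Glutamate is the main excitatory transmitter of the brain and the agonist that opens the NMDAR, and D-serine or glycine binds the receptor beside it. Uptake by the high-affinity carriers Slc1a1, Slc1a2 and Slc1a3 ends its action, whereas their relatives Slc1a4 and Slc1a5 exchange neutral amino acids such as serine, alanine and glutamine. In the liver, glutamine synthetase (Glul) and Slc1a2 are known from the hepatocytes around the central vein, and glutaminase 2 from those near the portal vein.

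Markers of the labelled tissue were bright, and a liver gene was about as bright. Star, the cholesterol carrier of steroid-making cells, had a log2 value of 13.47 in the controls and 13.56 in CGP, and Th, which starts catecholamine synthesis, 13.05 in each, against an array background of 6.41 to 6.65. Background here is, for each array, the 75th percentile over 128 probe sets of chemosensory receptors (olfactory, vomeronasal and trace amine). None of 10 tested genes of the adrenal cortex, 14 of the medulla and 3 of the kidney tubule passed the test (limma; an unadjusted p under 0.05 was found for 1, 1 and 0 of them). The zona glomerulosa, the cortical layer that makes aldosterone, had a separate list. Of its 9 tested genes, 5 were higher in CGP and 4 did not pass. In the same arrays albumin (Alb), the main liver plasma protein, stood at 13.40 in the controls and 12.98 in CGP, all 32 tested genes of a hepatocyte list were lower in CGP and 15 of 17 adipocyte genes were higher. In bulk tissue, fewer cells of a type and less RNA per cell cannot be told apart. The source of the liver and fat transcripts in these samples was not tested.

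Developmental NMDAR antagonism with CGP was followed by a difference in 3 of the 9 probe sets, all of them Slc1 carriers. Slc1a3 and Slc1a5 were higher in the CGP group, by 1.46-fold and 1.37-fold, and Slc1a2 was lower by 1.38-fold (limma, adjusted p under 0.05 over all 16034 probe sets). The enzymes Glul, Glud1 and Srr and the carriers Slc1a1 and Slc1a4 did not pass the test. Of all tested probe sets, 3.53% passed (1.94% higher and 1.59% lower in CGP). Because these genes were chosen with results of the data known, their share is a description and not a test of the group. The median log2 difference of the 9 was 0.06, against -0.01 for all tested.

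**Figure D1:**
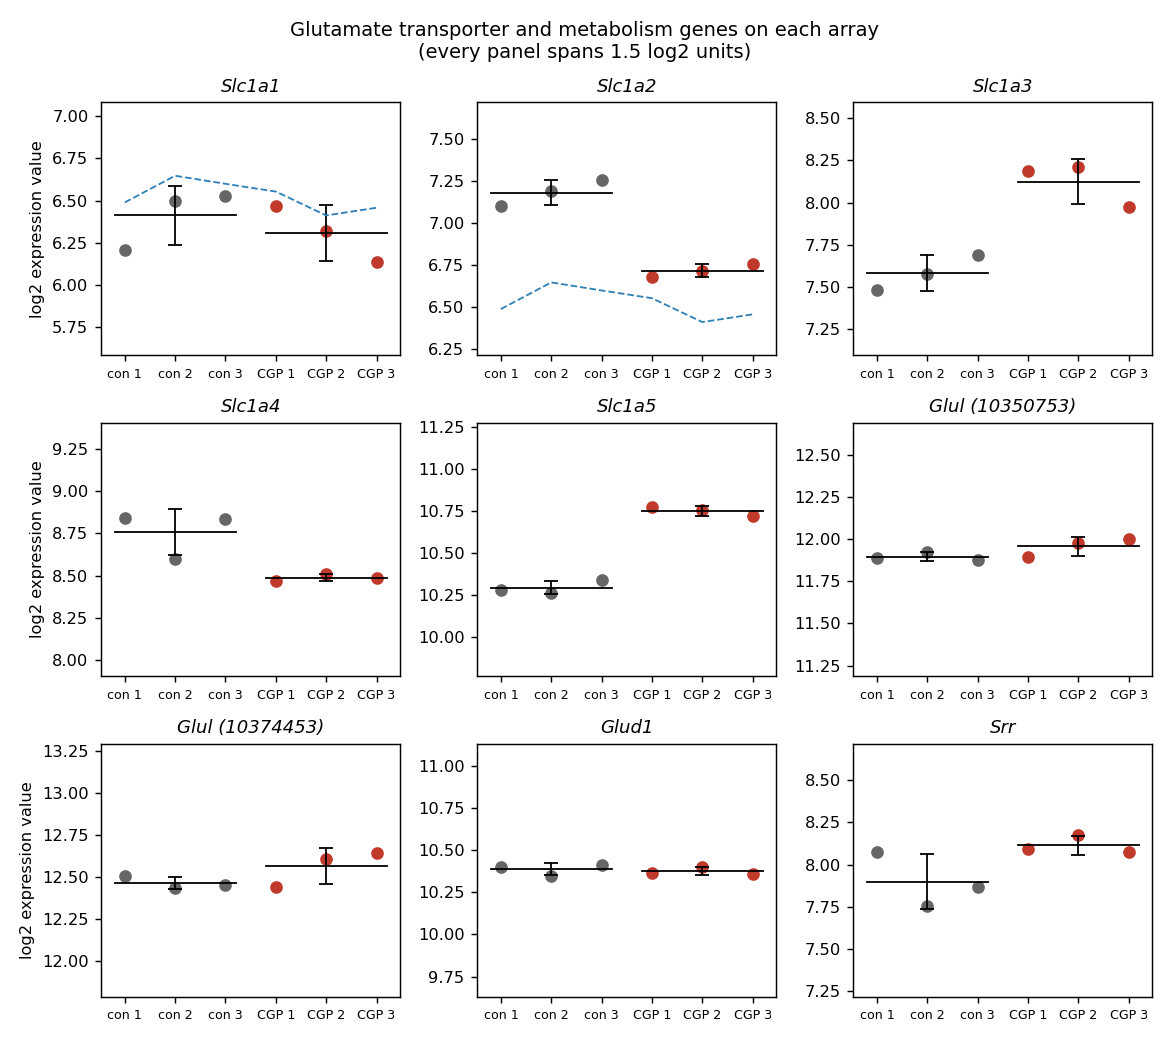
Deposited log2 value (vertical axis) of the 9 probe sets, 1 panel each, on the 3 control (con, grey) and 3 CGP (red) arrays, with group means and SDs in black. Every panel spans the same range, and the dashed blue line, drawn for Slc1a1 and Slc1a2, is the array background. The groups stand apart for Slc1a2, Slc1a3, Slc1a4 and Slc1a5, and Slc1a1 lies under background throughout.

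Slc1a2 is the carrier that clears most glutamate in the forebrain, where astrocytes hold it, and perivenous hepatocytes also express it. Its log2 values were 7.10, 7.19 and 7.25 on control arrays 1 to 3 and 6.68, 6.71 and 6.76 on CGP arrays 1 to 3. All 3 CGP arrays thus lay below all 3 controls, and the gap between the groups was wider than the range within either. The difference was -0.46 (SE 0.05, 95% confidence interval -0.59 to -0.34, adjusted p = 0.00301 by limma), from means of 7.18 ± 0.08 and 6.72 ± 0.04 (SD, n = 3 arrays each). Leaving out any 1 array kept the call, at an adjusted p of at most 0.0234. Slc1a2 was a dim probe set, above background on every array but close to it in CGP. With the 90th percentile of the receptor probe sets as the floor, under which all 3 CGP values and control array 2 fell, the fold was 1.13.

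The hepatocyte genes moved in the same direction as Slc1a2. Their median log2 value was 9.77 to 9.86 on the control arrays and 8.81 to 8.90 on the CGP arrays, a median difference of -0.91, and their summed linear signal was 53030 to 53790 and 30970 to 31710. None of the 32 lay under background on all arrays. Among 13 tested genes of perivenous hepatocytes, the cells in which Glul and Slc1a2 are known, 5 were lower and 8 did not pass, with a median of -0.18 and a summed signal of 17250 to 17600 in controls and 17230 to 17450 in CGP. Of the 5, Slco1b2, a hepatocyte uptake carrier chosen after its values were seen, lay under background on all 6 arrays (6.43 and 6.05), as no other gene of the list did. The sum was led by Cyp2e1, an enzyme of alcohol and drug oxidation that did not pass (12.67 and 12.84). Next came Tbx3 (12.38 and 12.37), named after its values were seen, and Oat (11.12 and 10.94), and neither passed. The sum thus follows these bright genes and says little of the dimmer ones. Cyp7a1 (7.81 and 6.10) and Cyp1a2 (7.65 and 6.37) fell most, and both lay under background on all 3 CGP arrays. Gulo was lower as well (8.53 and 8.22). Of the 13 differences, 10 were below 0 and 3 above. Among 10 of periportal hepatocytes, 8 were lower, 1 was higher and 1 did not pass, with a median of -0.78 and sums of 16850 to 17150 and 14940 to 15230. These sums were led by Cyp2f2, the gene that did not pass (13.24 and 13.14), named after its values were seen. Cps1, which brings ammonia into the urea cycle, fell by 2.30-fold, while Pck1, an enzyme of gluconeogenesis that fat also uses for glycerol synthesis, was 1.36-fold higher and stands in the adipocyte list as well. The part of liver transcripts in the fall of Slc1a2 was not tested.

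Slc1a5 exchanges glutamine and other neutral amino acids at the plasma membrane. It read 10.28, 10.27 and 10.34 on control arrays 1 to 3 and 10.78, 10.76 and 10.72 on CGP arrays 1 to 3. The groups did not overlap, and the replicates of each lay within a narrow range, so that this was the member with the smallest p-value. The difference was 0.46 (SE 0.05, 95% confidence interval 0.35 to 0.56, limma adjusted p = 0.00131), from means of 10.30 ± 0.04 and 10.75 ± 0.03 (SD, n = 3 arrays each). It passed in all 14 alternative fits, with adjusted p of 1.54e-06 to 0.0213.

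Slc1a3 is the glutamate carrier of glial cells such as cerebellar astrocytes. Its values were 7.48, 7.58 and 7.69 on control arrays 1 to 3, and 8.19, 8.21 and 7.97 on CGP arrays 1 to 3. CGP array 3 was the nearest to the controls, and the groups still did not overlap. The difference of 0.54 (SE 0.08, 95% confidence interval 0.36 to 0.73, limma adjusted p = 0.0111) was the largest among the 9 probe sets, with means of 7.58 ± 0.11 and 8.12 ± 0.13 (SD, n = 3 arrays each). The call was lost without CGP array 1 (0.51, limma adjusted p = 0.0524) or CGP array 2 (0.50, limma adjusted p = 0.0601).

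**Figure D2:**
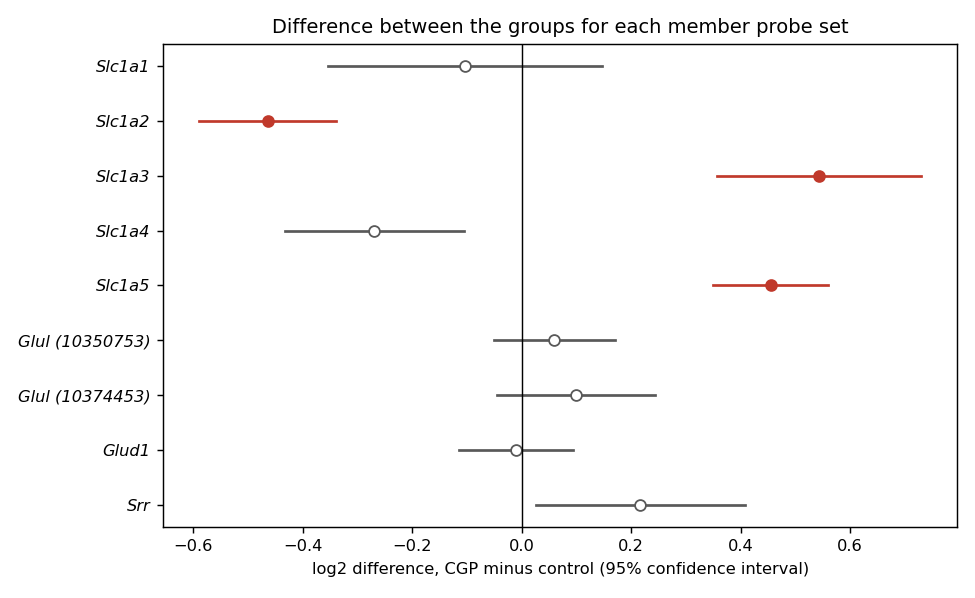
Log2 difference between the group means (horizontal axis, CGP minus control) of the 9 probe sets (vertical axis) with the 95% confidence interval of limma for each, not adjusted for the number of probe sets. Filled red points passed the test across all probe sets and open grey points did not. Slc1a3 at 0.54 and Slc1a5 at 0.46 lie to the right of 0 and Slc1a2 at -0.46 to the left.

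Beside Slc1a3 and Slc1a5, most genes of the adipocyte list and 5 of 9 zona glomerulosa genes were higher in CGP. Glial genes that passed went in both directions. Of 17 adipocyte genes, 15 were higher and 2 did not pass, with a median difference of 0.54. Their median value was 10.86 to 10.97 on the control arrays and 11.41 to 11.55 on the CGP arrays, with summed linear signals of 35130 to 36070 and 49340 to 49930, and none lay under background on all arrays. Adipoq, the hormone adiponectin, rose by 1.45-fold and Ucp1, the uncoupling protein of brown fat, by 2.33-fold. Of 12 genes of Schwann and sustentacular cells, the glia of nerve and medulla, 1 was higher, 2 were lower and 9 did not pass, and their summed signal was 3446 to 3620 in controls and 3459 to 3553 in CGP. Mbp, a myelin protein, was the one that rose (by 0.24), while Erbb3, a neuregulin receptor, fell by 0.32 and Aldoc, a glycolytic enzyme, by 0.26. Sox10, the transcription factor that defines these cells, did not pass (7.05 and 7.13). None of 13 macrophage genes and none of 10 endothelial genes passed (limma; median differences of -0.01 and 0.05, with an unadjusted p under 0.05 for 2 and 1). Of the 9 zona glomerulosa genes, 5 rose and 4 did not pass, with a median of 0.30 and summed signals of 24210 to 24940 and 29170 to 29360. The part of these cell types in the rise of either carrier was not tested.

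**Figure D3:**
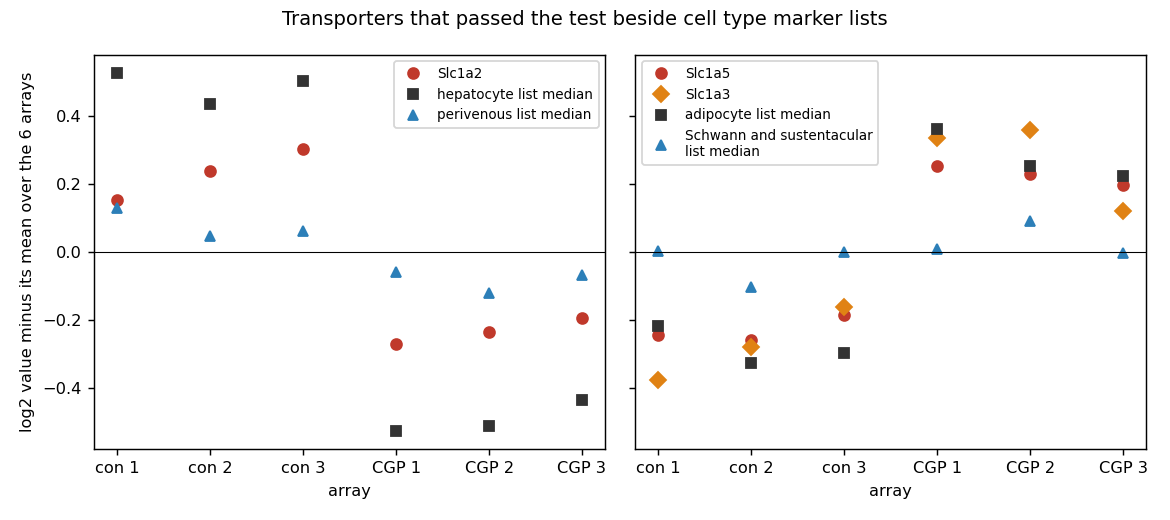
Log2 value minus its mean over the 6 arrays (vertical axis) on each array (horizontal axis), for Slc1a2 with the medians of the hepatocyte and perivenous lists (left) and for Slc1a3 and Slc1a5 with those of the adipocyte and the Schwann and sustentacular lists (right). Slc1a2 and the hepatocyte median lie above 0 on all controls and below 0 on all CGP arrays. Slc1a3, Slc1a5 and the adipocyte median show the opposite, and the Schwann and sustentacular median stays between 7.66 and 7.86 before centring.

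The profiles nearest to each of these carriers over the 6 arrays were sought among 14719 other genes, by the root mean square difference after each profile was centred on its own mean. Nearest to Slc1a2 were Nr4a2 (0.0403 log2 units), Pipox (0.0443), Mttp (0.0496), Hnf4a (0.0521) and Apob (0.0546). Nearest to Slc1a5 were Pck1 (0.00959), Cidec (0.0146), Slc6a5 (0.0226), Adig (0.0328) and Gbp7 (0.0341). Nearest to Slc1a3 were Pparg (0.0778), Cyp11b2 (0.0825), Plin4 (0.0837), Adig (0.0839) and Lpin1 (0.0852). All of these genes passed the test in the direction of the carrier, which their choice by likeness to it largely fixed in advance. With 6 arrays in 2 groups, nearness rests mainly on the size of the group difference, and Slc1a3, whose replicates spread most of the 3, had the most distant neighbours.

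Slc1a4, which exchanges serine, alanine and other small neutral amino acids, did not pass the test, although its groups did not overlap. It read 8.84, 8.60 and 8.84 on control arrays 1 to 3 and 8.47, 8.51 and 8.49 on CGP arrays 1 to 3. Control array 2 lay nearest to the CGP arrays, which differed little among themselves. The difference was -0.27 (SE 0.07, 95% confidence interval -0.43 to -0.11, limma adjusted p = 0.0897). It passed without control array 2 (-0.35, limma adjusted p = 0.0124) and under quantile normalisation (limma adjusted p = 0.0391) or median centring (limma adjusted p = 0.0487). In all, the groups did not overlap at 4 of the 9 probe sets, 2 higher and 2 lower, and at 26.3% of all tested. The exact permutation test over arrays cannot give a p below 0.1 with 3 arrays in each group, and it gave 0.1 for each of the 4.

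Srr, the racemase that makes D-serine, read 8.07, 7.75 and 7.87 on control arrays 1 to 3 and 8.09, 8.18 and 8.07 on CGP arrays 1 to 3. Control array 1 reached the level of the CGP arrays, and the groups overlapped. The difference of 0.22 (SE 0.08, 95% confidence interval 0.03 to 0.41) did not pass (limma adjusted p = 0.205). Without control array 1 it was 0.30 and passed (limma adjusted p = 0.0336).

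Glul, which joins ammonia to glutamate to make glutamine, was bright at both of its probe sets and did not pass at either. Probe set 10350753 had means of 11.90 ± 0.02 in controls and 11.96 ± 0.05 in CGP, a difference of 0.06 (95% confidence interval -0.05 to 0.17, limma adjusted p = 0.528). Probe set 10374453 had 12.47 ± 0.04 and 12.57 ± 0.11, a difference of 0.10 (95% confidence interval -0.04 to 0.24, limma adjusted p = 0.422). These intervals leave room for a rise of up to 1.13-fold and 1.18-fold. CGP array 1 lay within the controls at both probe sets, and the other CGP arrays lay above them at both. The annotation does not tell whether either probe set also measures a near-identical copy of the gene.

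Glud1, the mitochondrial enzyme that turns glutamate into 2-oxoglutarate and ammonia, was the member that differed least. Its values ran from 10.35 to 10.41 on the control arrays and from 10.36 to 10.40 on the CGP arrays, and the CGP range lay inside that of the controls. The difference was -0.01 (SE 0.04, 95% confidence interval -0.11 to 0.09, limma adjusted p = 0.920), which bounds a fold between 0.924 and 1.07. Slc1a1, the glutamate carrier of neurons and kidney tubules, lay under background on all 6 arrays (6.21 to 6.53 in controls, 6.14 to 6.46 in CGP), so its test (limma adjusted p = 0.635) cannot show whether it changed.

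The rest of glutamate and glutamine handling was read from 63 genes in 6 lists, of which 55 were tested. Of the 55, 49 did not pass, 3 rose and 3 fell, with a median difference of -0.05. Over all tested probe sets, 3.53% passed. Ddo, 1 of the 3 that rose, lay under background on all 6 arrays. Values above 0 were found in 17 of the 55, and in 45.6% of all tested probe sets. Of 7 other carriers of glutamate and cystine, 5 were tested and none passed (limma; 1, Slc1a6, had an unadjusted p under 0.05). Slc1a6, the carrier of cerebellar Purkinje cells, lay under background on all arrays. Slc1a7, a carrier of the retina, and Slc17a7, which fills synaptic vesicles with glutamate, had both group means under it. Slc7a11, the cystine-glutamate exchanger, stood near it (6.61 and 6.55). Slc17a8, another vesicular carrier, did not pass the filter, and Slc17a6 and Dao were not analysed here.

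**Figure D4:**
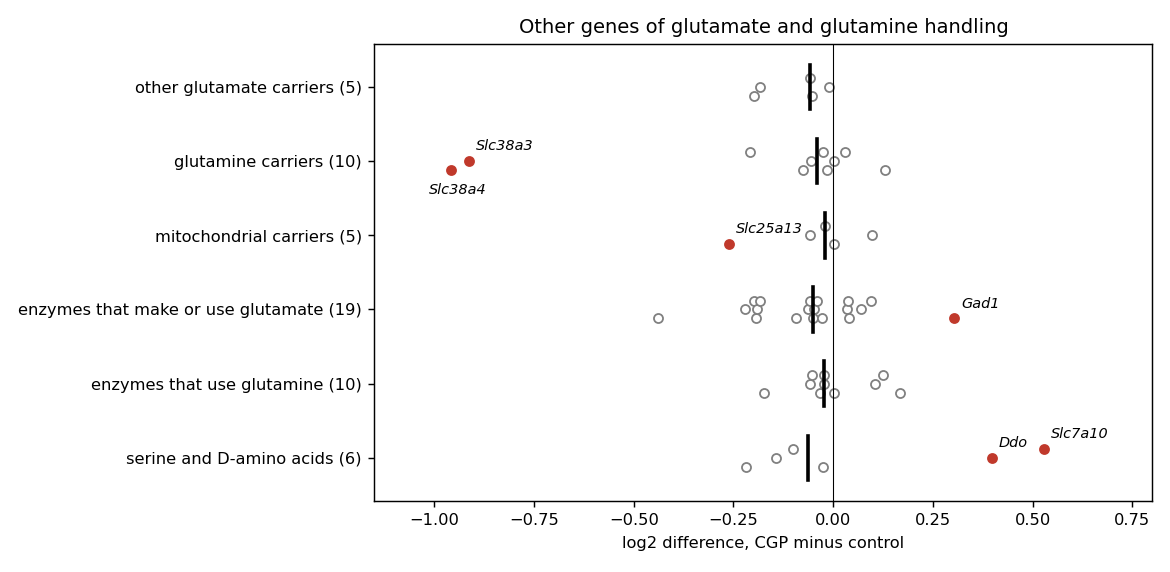
Difference of group means in log2 units (CGP minus control, horizontal axis) for every gene tested in 6 lists of glutamate and glutamine handling (vertical axis, with gene numbers). Filled red points passed the test, open points did not, and a black bar marks the median of a list. Slc38a3 and Slc38a4 lie near -0.9, Slc7a10 at 0.53, and all list medians between -0.06 and -0.02. Ddo passed the test but lay under background on all arrays.

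Among 10 tested glutamine carriers, 2 were lower and 8 did not pass (median -0.04). Slc38a3, which carries glutamine with sodium and is abundant in liver, was at 9.49, 9.55 and 9.62 on control arrays 1 to 3 and 8.60, 8.76 and 8.57 on CGP arrays 1 to 3. It fell by 0.91 (SE 0.06, limma adjusted p = 0.000228), or 1.88-fold. Slc38a4, a sodium-coupled carrier of neutral amino acids in liver, was at 8.99, 8.81 and 8.94 and then at 7.83, 8.06 and 7.98, and fell by 0.96 (SE 0.07, limma adjusted p = 0.000304), or 1.94-fold. In both, the CGP arrays lay well below every control, together with the hepatocyte list. Slc38a1 (0.13) and Slc38a2 (0.002), carriers of the same family found in many tissues, did not pass.

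Among 5 mitochondrial carriers, 1 was lower and 4 did not pass (median -0.02). Slc25a13, the aspartate-glutamate exchanger that liver uses, had means of 8.25 ± 0.06 and 7.99 ± 0.02 and fell by 0.26 (SE 0.05, limma adjusted p = 0.0281). Of the 6 fits without 1 array, the one without control 1 kept this call, and the other 5 gave a limma adjusted p of 0.0604 to 0.135. Slc25a12, the form found in brain and muscle, had means of 11.47 in each group and did not pass.

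Of 19 enzymes that make or use glutamate, 1 was higher and 18 did not pass (median -0.05), and 7 had an unadjusted p under 0.05. Gad1, which makes gamma-aminobutyric acid from glutamate, stood at 8.20, 8.24 and 8.17 on the control arrays and 8.48, 8.60 and 8.43 on the CGP arrays, a rise of 0.30 (SE 0.06, limma adjusted p = 0.0321). Here too the fit without control 1 was the one that kept the call, and the other 5 gave a limma adjusted p of 0.0604 to 0.123. The aminotransferases Got1 (12.64 and 12.67) and Got2 (11.99 and 11.96), which link glutamate to aspartate, differed little. Aldh18a1, the first enzyme from glutamate to proline, did not pass at -0.20 (limma adjusted p = 0.0503), nor did Oat, which links ornithine to glutamate, at -0.18 (limma adjusted p = 0.0719). Bcat1, an aminotransferase of branched-chain amino acids, lay between them at -0.19 (limma adjusted p = 0.0635) and was chosen after its values were seen. Prodh, which starts the breakdown of proline, did not pass (-0.05). Of 10 enzymes that use glutamine as a nitrogen donor, none passed (limma; median -0.02), and 2 of them, Asns and Gmps, chosen after their values were seen, had an unadjusted p under 0.05.

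Of 6 genes of serine and D-amino acid metabolism, 2 were higher and 4 did not pass (median -0.06). Slc7a10, which exchanges serine, D-serine, glycine and alanine and is also a surface marker of white adipocytes, was at 8.62, 8.71 and 8.57 on control arrays 1 to 3 and 9.23, 9.17 and 9.08 on CGP arrays 1 to 3. It rose by 0.53 (SE 0.06, limma adjusted p = 0.00233), or 1.44-fold, with no overlap between the groups and beside the rise of the adipocyte list. Ddo, the oxidase of D-aspartate, passed as well (5.75 and 6.15, limma adjusted p = 0.00672), but lay under background on all 6 arrays, so no fold is given. Phgdh, which starts serine synthesis, did not pass (-0.22, limma adjusted p = 0.314). The part of fat or liver transcripts in these differences was not tested.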

How the data were processed

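The table deposited by the authors holds log2 values of 25150 probe sets on 6 arrays. The submitters' processing notes name RMA (background correction, quantile normalisation and summary of probes per probe set) and Partek, and neither versions nor a genome build or annotation were given in the sources used here. The values ran from 3.75 to 14.6, and no normalisation was added. Arrays have no read depth, so precision is set by how many there are. Groups and array numbers came from the sample titles. No pair of arrays was identical (the SD of the difference between arrays was 0.103 to 0.218).

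Gene symbols were taken from the platform annotation, in which 1031 had several symbols and 7350 none. Linear models of CGP against control, without covariates, were fitted by lmFit and moderated by eBayes in limma 3.58.1 (R 4.3.3), with two-sided p-values, Benjamini-Hochberg adjustment over the 16034 tested probe sets and a threshold of 0.05. The test was tried on simulated data first. Lists were counted with the brightest tested probe set of each gene and have no test of their own. A nearest-profile search named 5 genes for each carrier that passed.

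The genes, the lists and the rule for naming genes were chosen with earlier results of these data known. The rule took all members, the pathway genes that passed, a fixed set of 25 genes and up to 3 called genes of each cell type list. Other genes are background to a list or were named once their values were known, as stated there. Alternatives were other filters, all probe sets whatever their symbols, quantile normalisation, median centring, a variance trend with robust prior, array weights, a block for array number, and each array left out in turn.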

Additional observations from a re-analysis of the deposited data

How the results depend on the processing

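Of the 125 values of the 9 probe sets under alternative settings, 114 kept their direction and their side of the threshold. Slc1a2 and Slc1a5 passed in all 14 alternatives. Slc1a3 passed in 11 and not with the array number as a block (limma adjusted p = 0.063) or without CGP array 1 or 2. Slc1a4 passed in 5 of 14, also with a variance trend (limma adjusted p = 0.0264) and array weights (limma adjusted p = 0.0156), and Srr in 2, also with array weights (limma adjusted p = 0.0452). The count of members that passed was 3 and became 5 with array weights and 2 to 4 when an array was left out. The count over all probe sets, 566, became 1261 with a variance trend and robust prior, 1665 with array weights and 224 with the array number as a block. It was 1099 without control 1, 364 without control 2, 269 without control 3, 320 without CGP 1, 236 without CGP 2 and 237 without CGP 3. Of the pathway genes 6 passed, 11 with the variance trend, 13 with array weights and 4 to 8 when an array was left out. With the 90th percentile as background, the fold of Slc1a2 was 1.13 in place of 1.38. Same-numbered arrays of the 2 groups did not deviate together (r = -0.357, -0.169 and -0.118). Differently numbered arrays gave r of -0.157 to 0.276. These few values cannot settle whether the arrays were paired. With the array number as a block, 2 members passed, Slc1a2 and Slc1a5.

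Signs turned for values near 0 that never passed. With an array left out, the difference ranged from -0.030 to 0.0034 for Glud1, -0.159 to 0.040 for Slc17a7, -0.024 to 0.025 for Slc38a2, -0.012 to 0.012 for Slc25a12 and -0.0043 to 0.028 for Th. Quantile normalisation gave -0.0023 for Slc38a2 and -0.00031 for Slc25a12, and median centring -0.0054 and -0.0043. The naming rule took 53 other tested genes, not all of them named above, with 737 values under alternatives. Of these values, 679 kept direction and side, 36 lost and 9 gained a call, and 13 turned in sign. Genes named outside the rule, such as Bcat1 and Asns, were not counted. The scaling alternatives moved the median of all probe sets by -0.002 and -0.007. Depth in the sense of reads does not apply, and dim probe sets such as Slc1a1 limit what can be seen.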
